A study of Mus musculus with 6 samples.

Results

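*Sox2*, *Lgr5*, *Lrig1* and *Tbx1* are genes known from the epithelial stem cells of the cervical loop of the mouse incisor. They were picked by gene name and not by a measured value, though with earlier results of these data known. All 4 were present among the 19270 genes of the deposited table. RNA-seq was performed on the proximal end of the mouse incisor, with 3 control libraries and 3 *Arid1b* mutant libraries. All mice were given tamoxifen when 1 month old, and the tissue was collected 4 days later. The mutants were *Gli1-CreER;Arid1bfl/fl*, whereas the controls are wild type in the labels and *Arid1bfl/fl* mice in the methods. CreER is expressed from the *Gli1* gene in this line, and the study describes GLI1+ cells as giving rise to both mesenchyme and epithelium of the incisor. The study reports that *Arid1b* was deleted in both tissues of these mutants. The dissected tissue is described as mesenchyme, and epithelial transcripts were present in both groups.

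The mouse incisor grows throughout life, and its enamel-forming epithelium is renewed from stem cells in the cervical loop at the proximal end of the tooth. Progeny of these cells pass through a transit-amplifying zone, then become pre-ameloblasts and ameloblasts, which secrete enamel proteins, or cells of the stratum intermedium. SOX2 is an HMG-box transcription factor that marks these stem cells in the labial cervical loop, and TBX1 is a T-box transcription factor of the dental epithelium that is needed for enamel formation. LGR5 is a receptor for R-spondins that strengthens Wnt signaling, and LRIG1 is a membrane protein with leucine-rich repeats that restrains ERBB and MET receptors. Both are markers of stem cells in several epithelia, and SOX2 is also found in Schwann cells, as TBX1 is in lymphatic endothelium and head muscle.

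Because the members are single genes measured by read counts, the sequences that matter are those that tell them apart from relatives and those in front of their start sites. In GENCODE vM21 on GRCm38, which is also called mm10, no run of 50 bases in the *Sox2* or *Tbx1* transcripts was found in a transcript of another gene. For *Lgr5*, 0.676% of the distinct 50-base runs were shared with other genes, and for *Lrig1* 1.69% were shared, all with *Slc25a26*, which lies on the opposite strand and overlaps 144 exon bases of *Lrig1*. The longest run that *Sox2* shares with its relative *Sox1* is 38 bases of coding sequence at chr3:34650608-34650645 on the plus strand, and it is shown because it is the stretch in which these relatives are most alike.
Sox2 and Sox1: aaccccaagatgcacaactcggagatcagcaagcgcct
The longest run shared with *Sox3* is 32 bases, and neither *Sox1* nor *Sox3* is listed in the table. *Lgr5* shares at most 18 bases with *Lgr4* or *Lgr6*, *Lrig1* at most 23 with *Lrig2* or *Lrig3*, and *Tbx1* at most 18 with *Tbx2* or *Tbx3*.

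The 250 bases before the RefSeq start sites of *Sox2*, *Lrig1* and *Tbx1* (GRCm38.p6) are shown because these genes were higher in the mutants in the same comparison. Capitals mark the GC box GGGCGG and the CCAAT box CCAAT, each searched on both strands, so that CCGCCC and ATTGG in capitals are the same motifs on the other strand.
Sox2 chr3:34649745-34649994, plus strand: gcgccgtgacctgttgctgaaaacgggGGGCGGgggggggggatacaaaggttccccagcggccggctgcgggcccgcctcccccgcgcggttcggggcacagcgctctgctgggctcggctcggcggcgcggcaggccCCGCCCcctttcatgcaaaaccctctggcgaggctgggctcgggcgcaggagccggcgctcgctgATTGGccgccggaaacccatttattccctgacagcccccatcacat
Lrig1 chr6:94700146-94700395, minus strand: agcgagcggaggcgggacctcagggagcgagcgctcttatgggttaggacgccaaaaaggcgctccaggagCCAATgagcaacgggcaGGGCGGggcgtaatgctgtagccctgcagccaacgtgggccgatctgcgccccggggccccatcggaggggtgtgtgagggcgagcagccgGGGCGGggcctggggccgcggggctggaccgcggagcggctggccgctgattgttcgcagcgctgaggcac
Tbx1 chr16:18588900-18589149, minus strand: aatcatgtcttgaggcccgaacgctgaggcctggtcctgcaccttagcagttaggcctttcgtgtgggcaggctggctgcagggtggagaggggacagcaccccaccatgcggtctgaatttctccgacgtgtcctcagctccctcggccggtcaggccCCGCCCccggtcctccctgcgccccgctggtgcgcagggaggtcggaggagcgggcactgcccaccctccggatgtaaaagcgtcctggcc
Tbx1 chr16:18590672-18590921, minus strand: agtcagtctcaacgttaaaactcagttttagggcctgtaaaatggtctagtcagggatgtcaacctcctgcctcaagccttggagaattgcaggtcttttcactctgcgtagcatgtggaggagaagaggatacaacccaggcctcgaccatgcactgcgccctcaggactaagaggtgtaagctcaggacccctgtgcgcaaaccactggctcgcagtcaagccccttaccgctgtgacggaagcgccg
The *Sox2* and *Lrig1* windows each hold 2 GC boxes and 1 CCAAT box, with GC contents of 72.0% and 71.6%. The first of the *Tbx1* windows, within the gene, holds 1 GC box at 67.2% GC, and the second, at the upstream start site, holds neither motif at 54.4% GC. Over 32851 windows of the same length, the median GC content was 52.4%, 32.7% held a GC box and 33.8% a CCAAT box. The motif TATAAA was in none of the member windows and in 12.4% of all windows. *Lgr5* is not in the promoter table.

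The deposited values are an authors' mean per gene and group of a normalized signal, and the upper quartile of every library lay near 44.6. The values of single libraries for each gene were not analysed here, and therefore no SD across mice, no overlap of mice between groups and no test of the differences can be given. Intervals below are 95% counting intervals on the reads inferred behind each mean, with 37123643 to 49594469 reads per library on the listed genes. They cover counting error only and leave out the spread between mice. In *Arid1b*, the targeted gene, the mutant mean was 38.0 and the control mean 97.6, a ratio of 0.390. The labels give no sex, and the mean of *Xist* was 813.8 in mutants against 3368 in controls, with *Ddx3y* at 65.3 in the mutants and at the lowest value of the table in the controls, so that sex and genotype cannot be told apart here.

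The mutant mean exceeded the control mean in each of the 4 genes, by 1.41 to 1.68 times. The ratios of *Sox2* and *Tbx1* were over 1.5-fold, the fold used in the study's methods, and those of *Lgr5* and *Lrig1* were not, but the counting intervals of all 4 genes reached across this fold. With a pseudocount of 1, *Sox2* was no longer past it, at a log2 ratio of 0.50. Of all 19270 genes, 7.37% were higher in the mutants by over 1.5-fold and 50.5% were higher by any amount, while 5.80% were lower by over 1.5-fold. The median log2 ratio was 0.57 over the 4 genes and 0.0022 over all genes. In whole tissue, more cells of a type and more RNA per cell cannot be told apart.

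**Figure D1:**
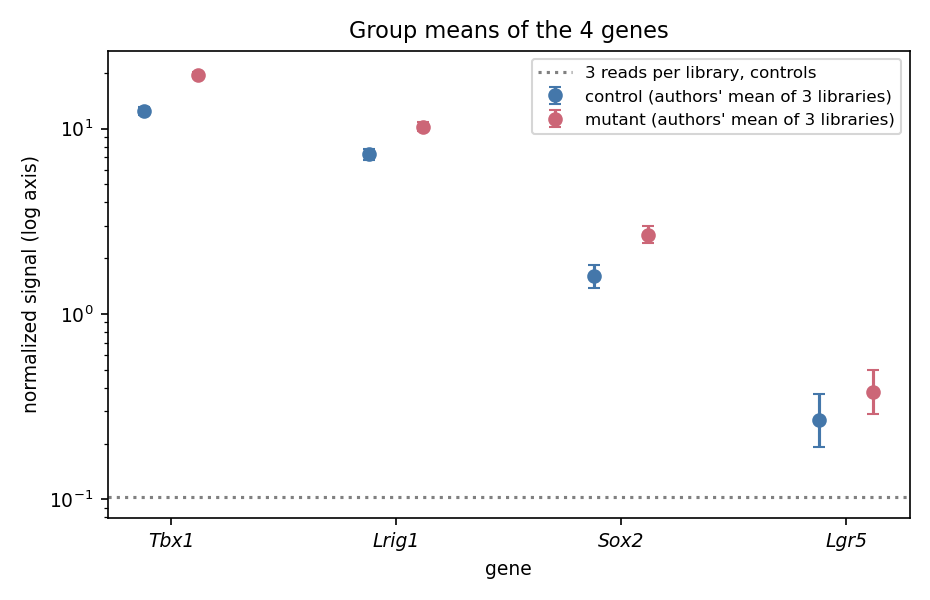
Group means of *Tbx1*, *Lrig1*, *Sox2* and *Lgr5* in normalized signal on a log axis, with points for the control and mutant means of 3 libraries each and bars for the 95% counting interval, which leaves out the spread between mice. Each mutant mean lies above its control mean, and the bars of *Lgr5*, at 0.266 and 0.379, overlap.

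*Sox2* (ENSMUSG00000074637.7, a gene with 1 exon at chr3:34650405-34652461 on the plus strand) had a mean of 1.60 in controls and 2.68 in mutants. The ratio was 1.68 with a counting interval of 1.40 to 2.00, and the log2 ratio was 0.74. The means correspond to about 183 reads over the 3 control libraries and 352 over the 3 mutant libraries, so *Sox2* was measured from few reads. Among all genes, 5.20% had a larger log2 ratio. Of the genes with a mean between 1 and 10, the range of *Sox2* and *Lrig1*, 8.75% were higher in the mutants by over 1.5-fold. *Sox2* lies within an intron of *Sox2ot*, a long noncoding transcript of the same strand with which it shares no exon base. The means of *Sox2ot* were 1.39 in controls and 1.41 in mutants, a log2 ratio of 0.02.

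*Tbx1* (ENSMUSG00000009097.10, chr16:18580979-18590671 on the minus strand) had means of 12.5 in controls and 19.5 in mutants, with the most reads of the 4 genes. Its ratio was 1.56, with a counting interval of 1.46 to 1.66, and its log2 ratio was 0.64. The means correspond to about 1449 and 2572 reads over the libraries of each group. Among genes with a mean between 10 and 100, which include *Tbx1*, 2.33% were higher in the mutants by over 1.5-fold. No other annotated gene overlaps *Tbx1*.

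*Lrig1* (ENSMUSG00000030029.14, chr6:94604529-94700158 on the minus strand) had a mean of 7.27 in controls and 10.3 in mutants. The ratio was 1.41 with a counting interval of 1.30 to 1.54. About 841 reads in controls and 1354 in mutants lie behind these means. *Slc25a26*, the overlapping gene on the other strand, had means of 4.47 in controls and 4.54 in mutants. Whether reads were counted by strand is not given in the sources used here.

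*Lgr5* (ENSMUSG00000020140.15, chr10:115450311-115587780 on the minus strand) was close to the limit of detection, with a mean of 0.266 in controls and 0.379 in mutants. Counts of 3 reads per library correspond to means of 0.103 in controls and 0.0923 in mutants. The ratio was 1.42, and its counting interval of 0.925 to 2.19 includes no difference. The means correspond to about 28 reads in all control libraries and 47 in all mutant libraries. Among genes with a mean between 0.1 and 1, 17.5% were higher in the mutants by over 1.5-fold, so ratios of this size were common at that level. A difference in *Lgr5* was not detectable at this depth.

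The log2 ratios of the 4 genes ranged from 0.50 in *Lrig1* through 0.51 in *Lgr5* and 0.64 in *Tbx1* to 0.74 in *Sox2*. In all 6 pairs, the counting interval of the difference between the log2 ratios included 0. The widest spread, between *Sox2* and *Lrig1*, was 0.25 on the log2 scale with an interval of -0.04 to 0.53. The order of the ratios is therefore not resolved by these reads.

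**Figure D2:**
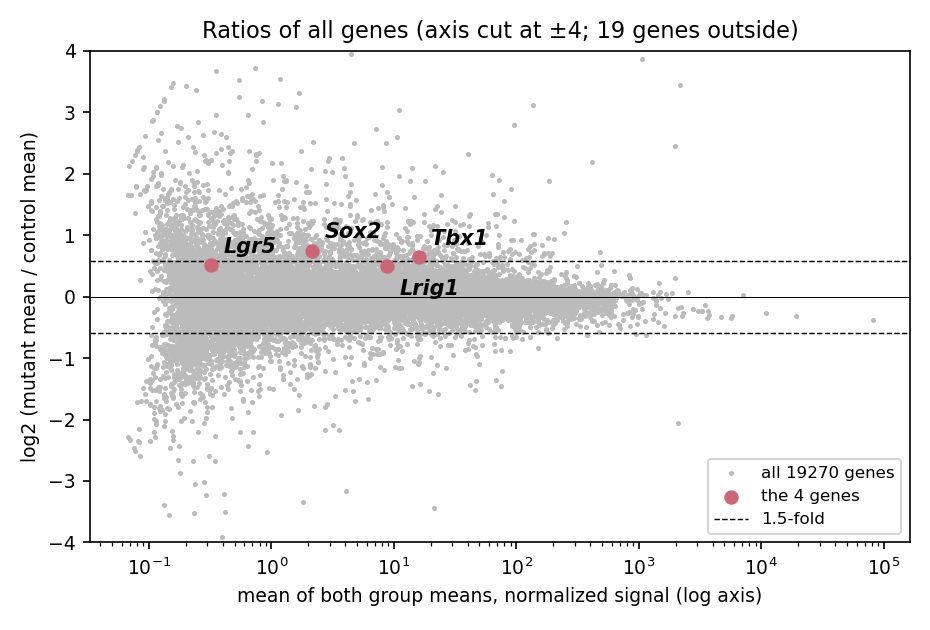
Log2 ratio of the mutant to the control mean against the mean of both groups, in normalized signal on a log axis, for all 19270 genes (grey) and the 4 stem cell genes (red), with dashed lines at 1.5-fold. The genes lie between 0.50 and 0.74, and the cloud of all genes widens toward low means, where *Lgr5* lies; 19 genes are outside the vertical range.

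Levels were compared between genes per kilobase of annotated exons. In the controls, *Tbx1* had 3.55 units of normalized signal per kb, *Lrig1* 1.30, *Sox2* 0.778 and *Lgr5* 0.0260. In the mutants the levels were 5.53, 1.84, 1.30 and 0.0369 units per kb in the same order. The order of the 4 levels was thus the same in both groups, and the level of *Sox2* was 30.0 times that of *Lgr5* in controls and 35.3 times in mutants, or 14.0 and 16.5 times with the longest transcript as the length. Against *Cdh1*, the E-cadherin gene of epithelial cells, the level of *Tbx1* was 16.2% in controls and 14.0% in mutants. The levels of *Lrig1* were 5.94% and 4.65% of *Cdh1*, and those of *Sox2* were 3.55% and 3.30%.

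*Lgr4* and *Lgr6*, the other receptors for R-spondins, had means of 93.5 and 86.4 in controls, and 73.0 and 69.0 in mutants, with log2 ratios of -0.36 and -0.32. Per kb, the level of *Lgr4* was 612 times that of *Lgr5* in controls and 336 times in mutants, and these factors were 332 and 182 with the longest transcript as the length. With all annotated exons as the length, *Lgr5* made up 0.0910% of the summed level of the 3 receptors in controls and 0.164% in mutants. The *Lgr5* values behind these shares come from about 28 and 47 reads, and the counting interval of their ratio included no difference. Of the R-spondin ligands, 1 of 4 was higher in the mutants, and *Rspo4*, the one with the highest level per kb, had means of 1397 in controls and 904 in mutants, a log2 ratio of -0.63. The others were *Rspo1*, *Rspo2* and *Rspo3*, at log2 ratios of 0.11, -0.04 and -0.28.

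Of 8 listed ligases and Wnt targets downstream of the LGR receptors, 7 were in the table and 6 of these were higher in the mutants, and the median log2 ratio of the list was 0.31. The 2 past 1.5-fold were *Rnf43*, a ligase that removes Wnt receptors and that R-spondins hold in check, at means of 9.58 in controls and 15.4 in mutants, and *Tnfrsf19*, a receptor of the TNF family and Wnt target, at 145.5 and 230.0. The related ligase *Znrf3* had a log2 ratio of 0.43. *Axin2*, a common readout of Wnt signaling, had means of 35.8 and 35.4, a log2 ratio of -0.02. Members of this list are also expressed in mesenchyme.

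Neither relative of *Lrig1* differed by more than 1.5-fold. *Lrig2* had means of 48.8 in controls and 48.3 in mutants, and *Lrig3* had 13.6 and 17.5, a log2 ratio of 0.37. *Lrig1* had 18.4% of the summed level of the family per kb in controls and 22.8% in mutants. Of the 5 listed receptors on which LRIG1 acts, 4 were higher in the mutants and *Egfr*, the receptor for EGF, was past 1.5-fold, with means of 12.9 in controls and 24.1 in mutants and a log2 ratio of 0.90. *Erbb2*, the receptor with the highest level per kb, had a log2 ratio of 0.17, and *Erbb3*, *Met* and *Erbb4* had 0.39, 0.03 and -0.02. Of 7 listed ligands of the EGF family, 6 were in the table and all 6 were higher in the mutants, and their median log2 ratio was 0.45. The ligands past 1.5-fold, *Egf*, *Nrg1* and *Areg*, all had means under 2. The log2 ratio of *Egf* was 0.66, *Nrg1* had means of 0.249 and 0.573, *Hbegf*, the ligand with the highest mean, had a log2 ratio of 0.24, and the control mean of *Areg* lay under the value of 3 reads per library.

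**Figure D3:**
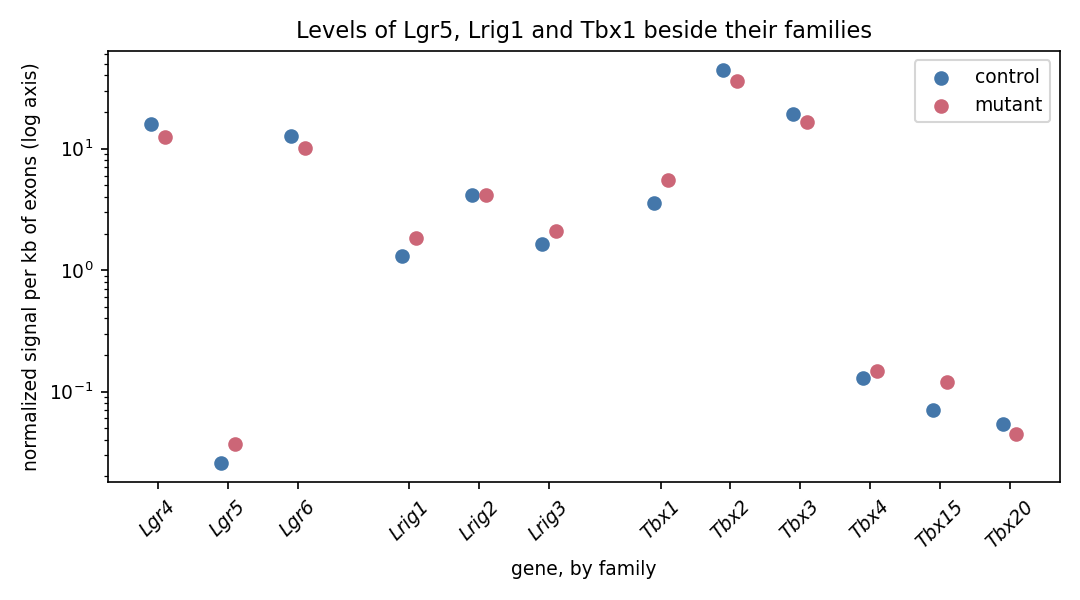
Levels in normalized signal per kb of exons, on a log axis, for the Lgr, Lrig and T-box families in the controls (blue) and mutants (red), each point an authors' mean of 3 libraries. *Lgr5* lies far under *Lgr4* and *Lgr6*, at 0.0260 and 0.0369, whereas *Lrig1* is within 3.19 times of *Lrig2* and *Tbx1* lies between *Tbx3* and *Tbx4*.

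Among the SoxB genes, the family of *Sox2*, only *Sox21* was in the table of the 4 listed relatives. *Sox21*, which acts in the commitment of incisor epithelium to the ameloblast fate, had means of 1.88 in controls and 12.4 in mutants, a log2 ratio of 2.72 against 0.74 in *Sox2*. *Isl1* and *Foxi3*, transcription factors of the incisor epithelium, were past 1.5-fold. *Isl1* had means of 16.1 in controls and 30.5 in mutants, and *Foxi3* had 1.76 and 3.84, with log2 ratios of 0.92 and 1.13. All of these were larger than the log2 ratios of the 4 stem cell genes.

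Of 7 listed T-box genes other than *Tbx1*, 5 were in the table. *Tbx2* and *Tbx3*, which had the highest levels per kb and are known from many mesenchymal tissues, were lower in the mutants, with control means of 159.8 and 126.6, mutant means of 129.5 and 109.6, and log2 ratios of -0.30 and -0.21. *Tbx4*, *Tbx15* and *Tbx20* had means under 1, of which *Tbx15* was past 1.5-fold with a log2 ratio of 0.77. Per kb, *Tbx1* made up 5.31% of the summed T-box level in the controls and 9.52% in the mutants.

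Of 6 other genes reported in the cervical loop, which are expressed in mesenchyme too, 5 were higher in the mutants by any amount and the median log2 ratio was 0.08. *Bmi1*, a Polycomb gene of stem cells, *Sfrp5*, a secreted Wnt antagonist, and *Igfbp5* had log2 ratios of 0.03, 0.17 and 0.13. *Bcl11b* was past 1.5-fold with a log2 ratio of 0.65. *Gli1*, the hedgehog target in whose locus CreER lies, had means of 106.4 in controls and 46.1 in mutants, a log2 ratio of -1.21, whereas *Ptch1*, the hedgehog receptor and target, had 0.01. The *Gli1* allele that carries CreER was present in the mutants, and its part in the *Gli1* value was not tested.

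Among 14 listed signals and receptors around the cervical loop, 11 were higher in the mutants and the median log2 ratio was 0.29. *Shh*, which is made by the inner enamel epithelium, was the one past 1.5-fold, with means of 103.3 in controls and 174.2 in mutants and a log2 ratio of 0.75. *Fgf9*, an epithelial ligand, had a log2 ratio of 0.55. *Fgf3* and *Fgf10*, ligands that the mesenchyme provides to the stem cells, were lower in the mutants, with log2 ratios of -0.49 and -0.33. *Fgfr2*, *Notch1* and *Fst* had log2 ratios of 0.30, 0.43 and 0.31, and *Bmp4* and *Fgfr1* had 0.01 and -0.05.

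Markers of epithelium as a whole were also higher in the mutants. This held for all 12 on the pan-epithelial list, 11 of them past 1.5-fold, with a median log2 ratio of 0.93 and a summed mean of 878.4 in controls and 1558 in mutants. *Krt5*, a keratin of basal cells, had means of 154.2 in controls and 358.5 in mutants. *Cdh1* had 100.2 and 180.8, and *Trp63*, a transcription factor of stratified epithelia, had 62.2 and 117.6. The log2 ratios of the others past 1.5-fold were 0.78 in *Epcam*, 0.86 in *Grhl2*, 0.87 in *Esrp1*, 0.93 in *Dsp*, 1.01 in *Krt14*, 1.33 in *Esrp2*, 1.53 in *Cldn4* and 2.09 in *Krt15*. Each of the 4 stem cell genes had a smaller log2 ratio than 11 of the 12 markers, the exception being *Perp* at 0.33. Relative to the median of the markers, the log2 ratios were -0.18 for *Sox2*, -0.29 for *Tbx1*, -0.42 for *Lgr5* and -0.43 for *Lrig1*. Counting intervals of the log2 ratio were 0.49 to 1.00 for *Sox2* and -0.11 to 1.13 for *Lgr5*. Both held the marker median of 0.93, so the place of these genes among the markers is not resolved by the reads. The intervals of *Tbx1*, 0.55 to 0.73, and *Lrig1*, 0.37 to 0.62, lay under that median. The markers themselves ranged from 0.33 to 2.09, and no test of the difference between them and the 4 genes was possible. The part of the epithelial share of the tissue in the values of the 4 genes was not tested.

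Genes of ameloblasts, the differentiated progeny of the stem cells, differed more. Of 7 listed, 6 were higher in the mutants and 4 were past 1.5-fold, with a median log2 ratio of 2.11. *Amelx*, *Ambn* and *Enam*, which encode enamel matrix proteins, had log2 ratios of 3.45, 2.44 and 3.87, and *Amtn*, a gene of maturation-stage ameloblasts, had 2.11. *Mmp20*, the protease of secretory-stage enamel, had means of 236.2 in controls and 284.8 in mutants, a log2 ratio of 0.27. *Klk4*, the protease of the maturation stage, had means of 1.49 and 1.21, a log2 ratio of -0.31. On the list for stratum intermedium and stellate reticulum, the neighbouring epithelial layers, 4 of 6 genes were higher in the mutants and the median log2 ratio was 0.14, while only *Rhcg*, whose control mean was under the value of 3 reads per library, was past 1.5-fold. *Alpl* and *Notch2*, the 2 genes that were lower, had the highest means of that list, at log2 ratios of -0.28 and -0.35. The part of mesenchyme in the values of this list was not tested.

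**Figure D4:**
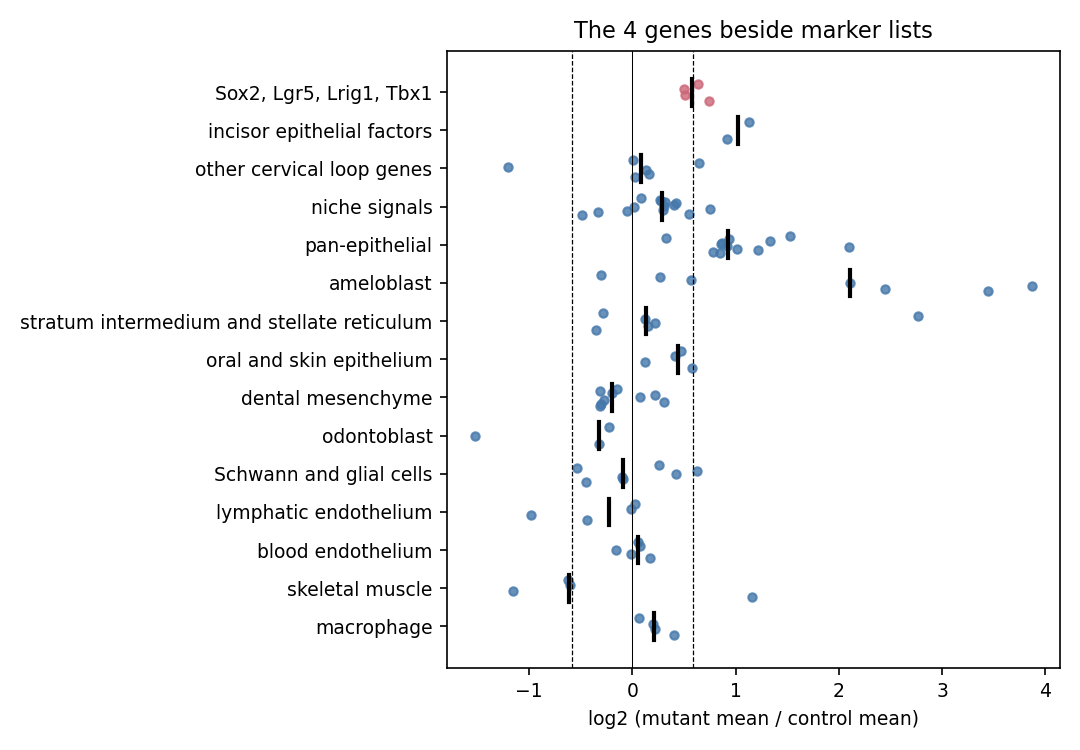
Log2 ratio of the mutant to the control mean for the 4 stem cell genes (red) and for lists of related genes and cell type markers (blue), with black bars for the list medians and dashed lines at 1.5-fold. The stem cell genes have a median of 0.57, between the pan-epithelial median of 0.93 and the dental mesenchyme median of -0.20.

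Other cell types that can express the 4 genes were examined in the same way. Of 8 listed Schwann and glial markers, 7 were in the table, with 3 higher and 4 lower in the mutants, a median log2 ratio of -0.09 and a summed mean of 72.8 in controls and 78.9 in mutants. *S100b* was the gene past 1.5-fold, with means of 1.18 in controls and 1.83 in mutants. *Ngfr*, with the highest mean, made up 31.6 and 37.7 of the summed means and had a log2 ratio of 0.25. *Mbp*, a myelin gene, had 0.43, and *Sox10*, the defining transcription factor, had -0.44. The part of these cells in the *Sox2* value was not tested. The 4 lymphatic markers had a summed mean of 112.9 in controls and 99.99 in mutants, of which *Pdpn* made up 53.9 and 54.9. *Prox1*, the defining factor, had means of 1.24 and 0.916, a log2 ratio of -0.43. *Lyve1* was the lymphatic marker past 1.5-fold, at a log2 ratio of -0.98, while *Flt4* and *Pdpn* had -0.01 and 0.03. The part of lymphatic and muscle cells in the *Tbx1* value was not tested. Of 5 skeletal muscle markers, *Myod1* was not in the table and the other 4 had summed means of 4.54 and 2.64, with *Myf5* higher and *Acta1*, *Ckm* and *Tnnt3* lower past 1.5-fold. Markers of oral and skin epithelium were low, with 4 of 6 in the table, a summed mean of 6.04 in controls and 7.27 in mutants, and none past 1.5-fold. The highest mean among them was that of *Krt10*, at a log2 ratio of 0.12.

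The tissue label was checked with mesenchymal markers. *Col1a1*, a collagen gene, had means of 21211 in controls and 17127 in mutants. Of the 9 listed genes, 3 were higher and 6 lower in the mutants, with none past 1.5-fold. Their log2 ratios ranged from -0.31 to 0.31, with a median of -0.20. All 3 odontoblast genes were lower in the mutants, with *Dspp* at means of 5179 and 4136 and *Dmp1* past 1.5-fold at a log2 ratio of -1.52. Markers of mesenchyme were thus present in both groups, and the median log2 ratios of the blood endothelial and macrophage lists were 0.05 and 0.21, with *Cdh5* at -0.01 and *Csf1r* at 0.20.

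With only 2 group means per gene, likeness of pattern is a weak measure. The genes nearest to each member by distance in log2 control and log2 mutant mean were *Grtp1*, *Pik3r5* and *Kl* for *Sox2*, and *Pclo*, *Car3* and *Cdcp1* for *Tbx1*. For *Lrig1* they were *Cdkl2*, *Rab38* and *Steap4*, and for *Lgr5* they were *Gm4875*, *1110003F10Rik* and *Gm10463*. Within a distance of 0.1, there were 8 genes for *Sox2*, 8 for *Tbx1*, 13 for *Lrig1* and 18 for *Lgr5*.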

How the data were processed

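RNA-seq of the proximal incisor was deposited for 3 control and 3 mutant libraries. Trimming, alignment to mm10 and the comparison of groups were done by the authors in Partek Flow, and the submitters' processing notes name TopHat2 2.0.8. The annotation and counting are not given in the sources used here. The deposited table gives the authors' mean of a normalized signal per gene and group, and a second table summarizes that signal per library, of which 5 numeric columns were not used. Columns with the authors' p-values, FDR, ratios and fold changes, and a table filtered on them, were not used.

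Both means were turned into log2 ratios of mutant to control, with no filter, since no gene had both means at or under the value of 3 reads per library. The signal was read as (reads + 1) times a factor per library, because the lowest means equal the mean of the library minima (0.0259 in controls, 0.0231 in mutants). Counting intervals (95%) follow from this reading, which is an inference. They were tried only on reads simulated under the same reading, which cannot test the reading itself or the spread between mice. No test across mice was run, and a gene past 1.5-fold is a description. Named genes were the 4 members, the targeted gene, family and pathway genes on fixed lists, those past the fold or with the highest mean on each list, and the 3 nearest genes by group means. Of the listed genes, 1 was removed from its list and is not reported here, and the others enter the counts and medians whether named or not. The members and lists were chosen with earlier results of these data known. *Sox2ot*, *Slc25a26*, *Xist*, *Ddx3y*, *Mmp20*, *Klk4*, *Sox10*, *Prox1*, *Mbp* and *Flt4* were added after their values were seen. Start sites are from RefSeq (GRCm38.p6), 3 of 4 members matched, and exons are from GENCODE vM21. Alternatives covered scaling, a pseudocount, filters, fold and length. Calculations were run in Python 3.11.15 (numpy 2.4.6, pandas 2.3.3), with scipy 1.17.1 for intervals and matplotlib 3.10.9 for plots.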

Additional observations from a re-analysis of the deposited data

How the results depend on the processing

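No value per gene and library was analysed here, so leaving out a library was not run, and the depth limits *Lgr5* most. The log2 ratios of the 4 genes stayed within their counting intervals when centred on the median of all genes, divided by the group sum (a shift of 0.06 for every gene), given a pseudocount of 1 (0.12 for *Lgr5*), or reduced by the lowest mean. Relative to the median of the pan-epithelial markers all 4 turned, to -0.18 for *Sox2*, -0.29 for *Tbx1*, -0.42 for *Lgr5* and -0.43 for *Lrig1*. The counting intervals of *Sox2* and *Lgr5* held that median. The number of the 4 genes higher in the mutants past the fold was 2, and it was 4 over 1.2-fold and 0 over 2-fold. Leaving out means under 10 kept only *Tbx1* of the 4, which was past the fold. With the pseudocount, 1 (*Tbx1*) was past the fold. The share of all genes past it was 7.37%, and it was 16.01% over 1.2-fold, 3.03% over 2-fold, 4.14% and 2.15% when means under 1 and under 10 were left out, and 2.44% with the pseudocount. In ranges of the mean chosen after the data were seen, it was 17.5% between 0.1 and 1 and 2.33% between 10 and 100. With the longest transcript as the length, the control level of *Lgr5* was 0.0556 units per kb in place of 0.0260, and the other 3 levels moved by less than 1.5 times. Of 43 list medians recomputed, 2 changed sign. Without means under 10, the stratum intermedium list went from 0.14 to -0.066 and the Schwann list from -0.09 to 0.34. The cause was not tested.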
